A study of Mus musculus with 16 samples.

Results

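The levels of 10 chemokine genes were followed through cultures of primary mouse hepatocytes that received a lipid mixture, itaconate, both or neither. The members are *Cxcl1*, *Cxcl2*, *Cxcl5*, *Cxcl9*, *Cxcl10*, *Cxcl12*, *Cxcl16*, *Ccl2*, *Ccl7* and *Cx3cl1*, which is 10 of the 55450 genes of the count table and 10 of its 42 chemokine genes. They were chosen by gene symbol, from a list drawn up with earlier results of these 16 libraries known. No cutoff of expression level or size of change fully separates them from the 32 chemokine genes left out, but the members were more often expressed. Of the 10, 8 averaged at least 1 CPM (counts scaled to the library total), against 6 of the 32 others, and 13 of those 32 had 0 counts. *Ccl9*, at a mean of 34.9 CPM, is no member, whereas *Cxcl5* and *Cx3cl1*, with at most 9 counts in any library, are. The p-values given for members are those of a fit across all genes, and they are not independent of the choice of the list.

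The cells were hepatocytes from wild-type mice, male C57BL/6J animals of 8 to 12 weeks according to the general methods of the study, kept overnight in DMEM with 5% fetal bovine serum and insulin-transferrin-selenium. All 4 groups shared this medium. The untreated group received no addition, the itaconate group 10 mM sodium itaconate, the lipid group a chemically defined mixture of fatty acids and cholesterol diluted 10-fold, and the lipid + itaconate group both. Itaconate is a metabolite that activated macrophages make from a citric acid cycle intermediate. Each group had 4 libraries, named by the replicate letters A to D, and each letter occurred once in every group. The labels do not say whether a letter is an animal, so the p-values measure the spread between these libraries, which may be technical in part.

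Chemokines are small secreted proteins that direct the migration of leukocytes through G protein-coupled receptors. *Cxcl1*, *Cxcl2* and *Cxcl5* encode ligands of CXCR2, the main receptor for neutrophil recruitment. *Ccl2* and *Ccl7* encode ligands of CCR2 that draw monocytes, and *Cxcl9* and *Cxcl10* encode interferon-inducible ligands of CXCR3 on activated T and NK cells. *Cxcl12* is the largely constitutive ligand of CXCR4 and of the scavenging receptor ACKR3, while *Cxcl16* and *Cx3cl1* encode membrane-bound chemokines that can be shed by proteases. In liver, hepatocytes, Kupffer cells, endothelial cells and stellate cells can all be sources, and NF-kB and interferon signalling are the best known activators of many of these promoters.

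Totals per library ran from 22346049 to 35512004 expected counts. Hepatocyte markers, *Alb* among them, were high throughout, with a summed level of 28673 to 52697 CPM for 8 markers. Neutrophil, T and NK cell and B cell marker lists each summed to under 1 CPM in every library, with *Ly6g* and *Nkg7* at 0 counts. The lipid + itaconate libraries agreed least with each other. Replicate B was farthest from its group, with a chi-square per gene of 106 to 147 against the other 3 libraries, where all other pairs of 1 group had 10 to 64.5. Without it the genes called between lipid + itaconate and lipid went from 301 to 136, and without replicate C, the library whose omission raised them, to 891. In the comparison of itaconate with untreated, which shares their spread in the fit, leaving out 1 lipid + itaconate library gave 491 to 1051 calls instead of 573, a check chosen after seeing the data. Member calls that change without one of them are given beside the result.

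A gene was called where its adjusted p was under 0.05 in edgeR's quasi-likelihood test with Benjamini-Hochberg adjustment over the 11675 genes that averaged 1 CPM or more, with treatment and replicate letter in the model. Of the 10 members, 8 passed this filter. *Cxcl5* and *Cx3cl1* did not, and their tests come from the same model fitted without the filter.

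Levels of different genes were compared as CPM per kilobase of exon. Among untreated hepatocytes the order was *Ccl2* (mean 102 CPM per kb), *Cxcl10* (70.2), *Cxcl1* (32.4), *Cxcl9* (31.1), *Cxcl16* (17.5), *Ccl7* (5.94), *Cxcl2* (5.84), *Cxcl12* (1.22), *Cxcl5* (0.0729) and *Cx3cl1* (0.0308). The ranges of 4 libraries overlapped between the neighbours *Cxcl1* and *Cxcl9*, between *Ccl7* and *Cxcl2* and between *Cxcl5* and *Cx3cl1*. No other neighbours overlapped. *Ccl2* spanned 77.9 to 133 CPM per kb and *Cxcl10* spanned 59.5 to 76.5. The order changed in the lipid group, where *Cxcl9* had the highest mean at 30.8 CPM per kb, followed by *Cxcl10* at 27.9 and *Ccl2* at 24.4, and the ranges of these 3 genes overlapped.

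**Figure D1:**
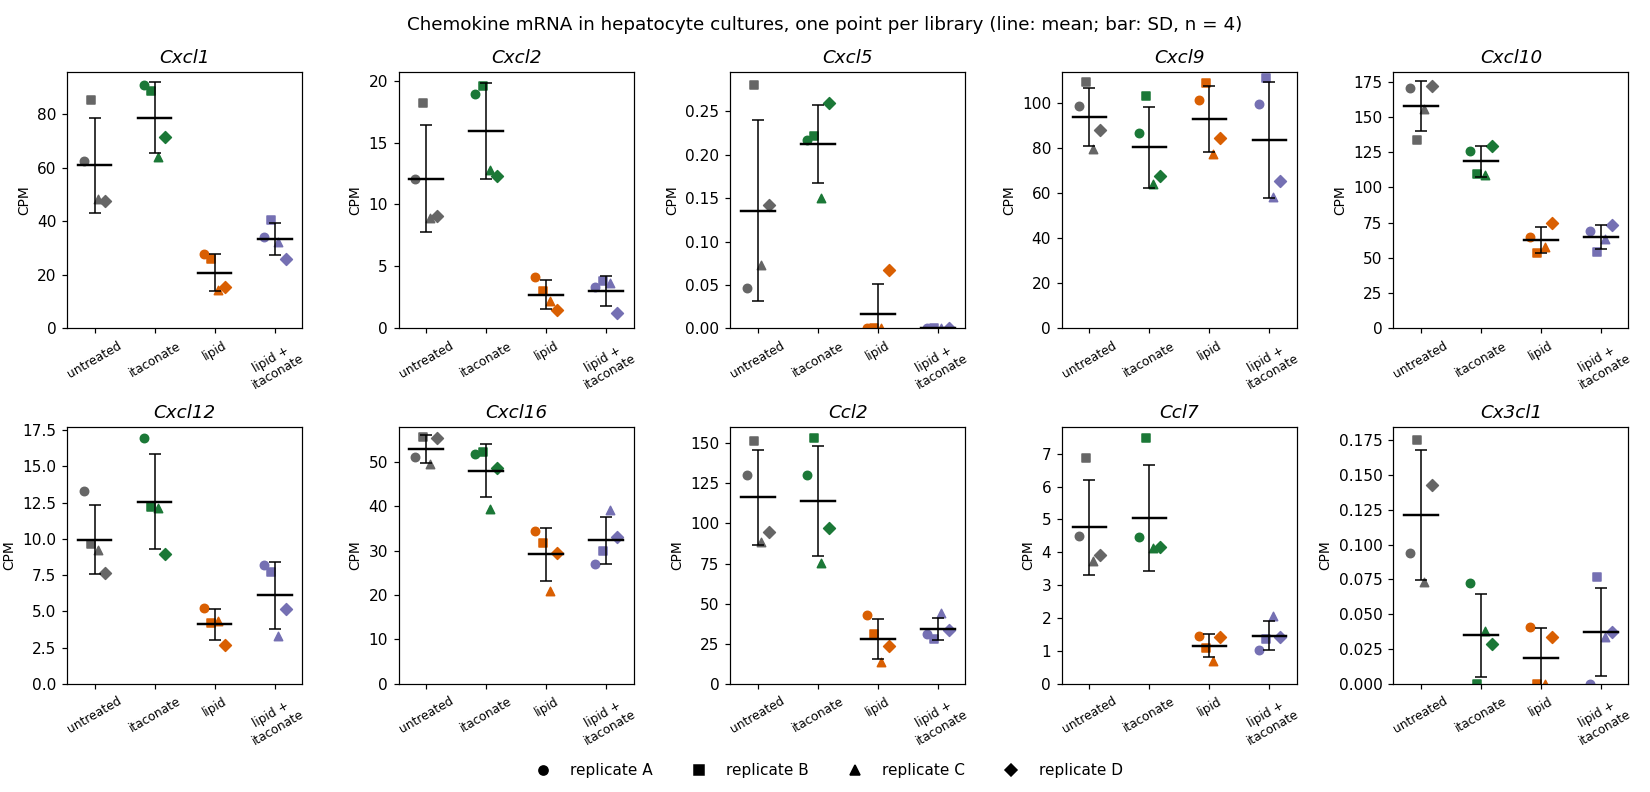
CPM of each of the 10 chemokine genes (vertical axes, linear, from 0) in the 4 treatment groups, with 1 point per library, its shape giving the replicate letter, a line at the mean and a bar of 1 SD (n = 4). For *Ccl2* all 8 libraries with lipid lie at or under 43.9 CPM and all 8 without it at or above 75.5 CPM, whereas the 4 groups of *Cxcl9* overlap.

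Most of the chemokines were lower with the lipid mixture. In bulk RNA, fewer cells of a type and less RNA per cell cannot be told apart. Compared with untreated cells, 7 of the 10 members fell and none rose, against 23.7% of all genes tested that fell and 23.8% that rose. The median log2 fold change was -1.77 over the 10 members and 0.00 over all genes tested. When itaconate was present in both groups, 8 of 10 members were lower with lipid and none higher, against 23.5% of genes lower and 23.5% higher, with a median of -1.15. The CPM ranges did not overlap for 8 of 10 members between lipid and untreated, where 32.5% of genes tested did not, and for 8 of 10 between lipid + itaconate and itaconate, where the share was 31.4%. The 8 include *Cx3cl1* (at most 1 count against at least 2) in the first comparison and *Cxcl5* (0 counts against at least 4) in the second. Both are under the filter, whereas the shares cover genes past it. The 2 comparisons use different libraries.

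The neutrophil attractants *Cxcl1* and *Cxcl2* were lower in every lipid library. *Cxcl1* (chr5:90891241-90893115, plus strand, GRCm38) measured 62.3, 85.3, 48.3 and 47.4 CPM in untreated replicates A to D. With lipid it measured 27.7, 25.8, 14.2 and 15.3 CPM, so that every lipid library lay below every untreated one. The fitted change was -1.56 on the log2 scale (SE 0.109, adjusted p = 3.92e-08), a 2.95-fold fall. *Cxcl2*, its close neighbour on chromosome 5, measured 12.1, 18.2, 8.95 and 9.06 CPM without and 4.18, 3.01, 2.23 and 1.45 CPM with lipid. The ranges did not overlap, and the fall of 4.5-fold (log2 -2.17, SE 0.199, adjusted p = 5.91e-07) was the largest among the 8 members past the filter. *Cxcl2* measured 18.9, 19.6, 12.8 and 12.3 CPM with itaconate and 3.36, 3.85, 3.62 and 1.24 CPM with lipid + itaconate, again without overlap. In the presence of itaconate the falls were 2.37-fold for *Cxcl1* (log2 -1.24, SE 0.103, adjusted p = 3.94e-07) and 5.34-fold for *Cxcl2* (log2 -2.42, SE 0.191, adjusted p = 2.53e-07). *Cxcl5*, also a CXCR2 ligand, was scarcely detected, with 1, 8, 2 and 4 counts in untreated libraries and 0, 0, 0 and 2 with lipid. Summed over 4 libraries and scaled by library size these counts were 7.52-fold lower with lipid, with a 95% counting interval of 1.75 to 67.7, and its change was not called (adjusted p = 0.138). With itaconate alone *Cxcl5* had 6, 6, 4 and 9 counts, and with lipid + itaconate 0 in all 4 libraries. Against a floor of 3 counts over the group this was 8.44-fold lower, with a 95% counting interval from 6.37-fold upward. The fit without the filter called this change (adjusted p = 0.00165). That fit shrinks every gene to nearly 1 shared spread, with a prior of 8510 degrees of freedom against 6.75 in the fit with the filter, and DESeq2 gave no adjusted p for this gene.

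Promoters are shown for the 4 members whose window held a match to a motif searched, *Cxcl1*, *Cxcl2*, *Cxcl10* and *Cxcl9*. RefSeq promoter windows (GRCm38.p6, 250 bases before to 50 after the start of the gene) were found for 6 of the 10 members and not for *Cxcl5*, *Cxcl16*, *Ccl2* or *Ccl7*. A search on both strands covered 3 motifs: the kappaB motif GGGANNNNCC bound by NF-kB, the core GAAANNGAA of the interferon-stimulated response element, and the STAT motif TTCNNNGAA, with N for any base. They occur in 20.7%, 8.56% and 8.3% of the 32851 mouse promoter windows. Matches on the 2 strands that overlap count as 1 place here. The kappaB letters were present in 4 of the 6 members' windows, the interferon element in 2 and the STAT motif in none. The bases before the start are printed 5′ to 3′ on the gene's strand, with every match in capitals.
Cxcl1: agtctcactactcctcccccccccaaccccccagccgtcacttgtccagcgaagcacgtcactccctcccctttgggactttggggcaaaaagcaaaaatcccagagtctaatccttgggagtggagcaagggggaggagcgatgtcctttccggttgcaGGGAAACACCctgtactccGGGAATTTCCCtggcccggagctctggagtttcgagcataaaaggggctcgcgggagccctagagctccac
Cxcl2: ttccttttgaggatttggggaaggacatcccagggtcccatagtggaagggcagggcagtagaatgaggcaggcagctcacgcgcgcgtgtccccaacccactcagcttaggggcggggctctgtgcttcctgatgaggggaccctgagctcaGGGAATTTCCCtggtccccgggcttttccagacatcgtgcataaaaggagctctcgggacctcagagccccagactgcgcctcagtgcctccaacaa
Cxcl10: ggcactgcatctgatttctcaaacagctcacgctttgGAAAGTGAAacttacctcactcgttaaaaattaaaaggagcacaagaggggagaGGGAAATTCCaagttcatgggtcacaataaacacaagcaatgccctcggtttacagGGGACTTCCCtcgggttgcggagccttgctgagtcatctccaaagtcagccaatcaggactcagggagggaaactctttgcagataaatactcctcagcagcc
Cxcl9: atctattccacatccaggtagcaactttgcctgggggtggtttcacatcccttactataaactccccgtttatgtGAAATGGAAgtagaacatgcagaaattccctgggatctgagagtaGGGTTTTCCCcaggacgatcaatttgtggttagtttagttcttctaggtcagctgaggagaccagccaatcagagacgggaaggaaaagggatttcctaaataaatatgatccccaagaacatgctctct
They lie at chr5:90890995-90891244 and chr5:90903649-90903898 on the plus strand and at chr5:92348890-92349139 and chr5:92328080-92328329 on the minus strand. In *Cxcl1* the capitals mark the kappaB sites GGGAAACACC and GGGAATTTCC, the second of which continues into an overlapping match on the other strand. *Cxcl2* carries GGGAATTTCC as well, beginning 97 bases before its RefSeq start compared with 71 in *Cxcl1*. The GENCODE start of *Cxcl2*, base 90903871, lies inside the stretch printed, so these distances depend on the annotation. *Cxcl10* holds the kappaB sites GGGAAATTCC and GGGACTTCCC and the interferon element GAAAGTGAA, which begins 213 bases before the start. *Cxcl9* holds 1 kappaB match, on the other strand, and the interferon element GAAATGGAA. The windows of *Cxcl12* and *Cx3cl1* held none of the 3 motifs. A match is a description of these letters, and binding was not measured.

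Both monocyte attractants fell with lipid. *Ccl2* (chr11:82035571-82037453, plus strand) measured 130, 151, 88.6 and 95 CPM in untreated replicates A to D and 43.0, 31.0, 13.7 and 23.4 CPM with lipid. The ranges were far apart, and the fall was 4.26-fold (log2 -2.09, SE 0.230, adjusted p = 3.54e-06). *Ccl7*, which follows *Ccl2* on the chromosome, was much less abundant, at 4.50, 6.88, 3.73 and 3.92 CPM without lipid. It measured 1.46, 1.09, 0.689 and 1.42 CPM with lipid, a 3.97-fold fall (log2 -1.99, SE 0.260, adjusted p = 1.93e-05). For both genes lipid replicate C was the lowest library. *Ccl2* measured 130, 153, 75.5 and 96.9 CPM with itaconate and 31.2, 27.9, 43.9 and 33.6 CPM with lipid + itaconate. For *Ccl7* these libraries gave 4.46, 7.47, 4.14 and 4.15 CPM and 1.02, 1.35, 2.07 and 1.42 CPM, and for neither gene did the ranges overlap. With itaconate in both groups *Ccl2* was 3.15-fold lower with lipid (log2 -1.65, SE 0.225, adjusted p = 3.29e-05) and *Ccl7* 3.35-fold lower (log2 -1.74, SE 0.247, adjusted p = 4.62e-05).

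Of the CXCR3 ligands, *Cxcl10* fell with lipid and *Cxcl9* was not called. *Cxcl10* (chr5:92346638-92348889, minus strand) measured 171, 134, 156 and 172 CPM in untreated replicates A to D and 65.2, 53.2, 58.0 and 74.6 CPM with lipid. All 4 lipid libraries were below all untreated ones, and within a letter the fall was 2.31- to 2.69-fold, the narrowest range of the 7 genes that fell. The fitted change was -1.34 on the log2 scale (SE 0.0467, adjusted p = 3.1e-11). *Cxcl9*, which lies next to *Cxcl10* in the same orientation, measured 98.8, 109, 79.6 and 87.8 CPM in untreated cells. With lipid it measured 101, 109, 77.4 and 84.4 CPM, so the groups overlapped almost completely and the libraries followed their letters. Its log2 change was -0.02 (95% interval -0.17 to 0.14, adjusted p = 0.86), which runs from 1.13-fold lower to 1.1-fold higher. In the presence of itaconate *Cxcl10* was 1.83-fold lower with lipid (log2 -0.87, SE 0.0464, adjusted p = 6.83e-09), and *Cxcl9*, at 99.4, 111, 58.1 and 65.2 CPM with lipid + itaconate, differed by 0.04 on the log2 scale (95% interval -0.12 to 0.19, adjusted p = 0.698).

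Of the remaining 3 members, 2 fell. *Cxcl12* (chr6:117168535-117181367, plus strand) measured 13.3, 9.61, 9.20 and 7.67 CPM in untreated libraries and 5.20, 4.21, 4.30 and 2.67 CPM with lipid, without overlap and 2.44-fold lower (log2 -1.29, SE 0.164, adjusted p = 1.49e-05). *Cxcl16* (chr11:70453983-70459984, minus strand) went from 51.2, 55.7, 49.5 and 55.4 CPM to 34.5, 31.7, 20.8 and 29.6 CPM. This was the smallest of the 7 falls, at 1.82-fold (log2 -0.87, SE 0.130, adjusted p = 6.42e-05). The ranges of *Cxcl16* came close to touching in the presence of itaconate, at 51.8, 52.2, 39.3 and 48.5 CPM without lipid and 27.0, 29.9, 39.2 and 33.2 CPM with it, since replicate C was the lowest itaconate library and the highest lipid + itaconate one. In itaconate-treated cells lipid lowered *Cxcl12* by 2.08-fold (log2 -1.06, SE 0.154, adjusted p = 5.99e-05) and *Cxcl16* by 1.47-fold (log2 -0.56, SE 0.128, adjusted p = 0.0023). *Cx3cl1* was at the limit of detection, with 2, 5, 2 and 4 counts in untreated libraries and 1, 0, 0 and 1 with lipid. Its summed counts were 6.51-fold lower, with a counting interval of 1.47 to 59.5, and the change was not called (adjusted p = 0.34). Counting intervals and floors cover counting error only.

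**Figure D2:**
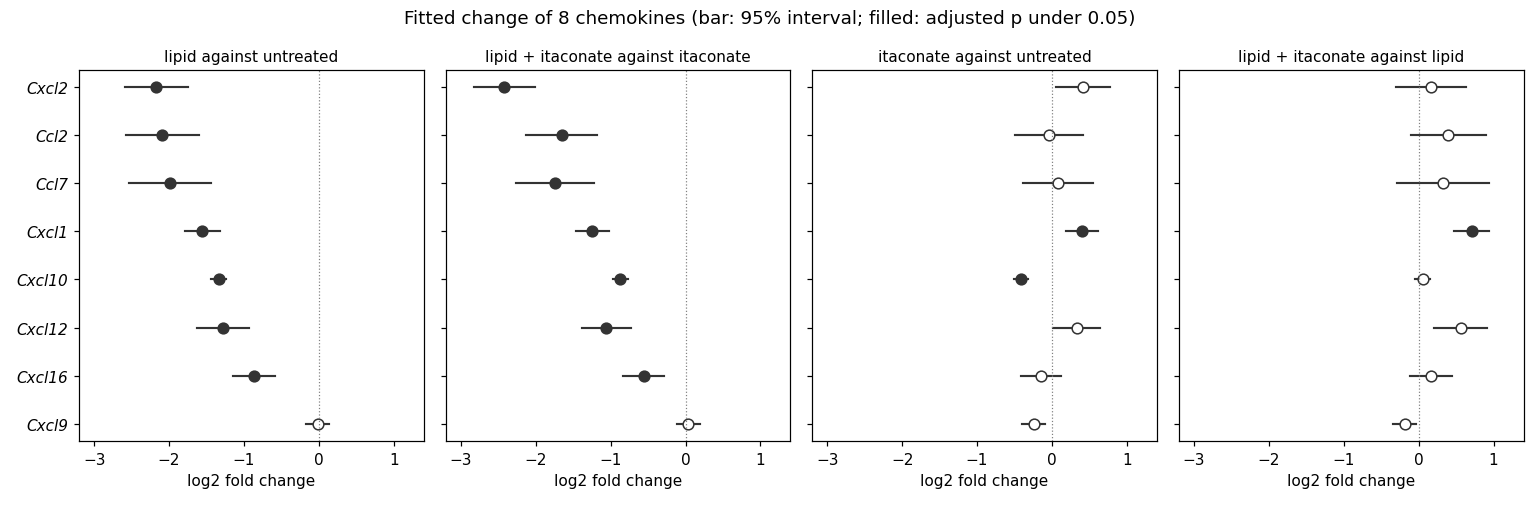
Fitted log2 fold change of the 8 chemokines past the filter (horizontal axes) in 4 comparisons, with 95% intervals as bars and filled points for an adjusted p under 0.05. In both lipid comparisons 7 of the 8 genes lie left of 0 and *Cxcl9* lies at 0, and in the itaconate comparisons the filled points are *Cxcl1*, higher in both, and *Cxcl10*, lower without lipid.

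Some markers of other cells moved with lipid as well. Of 12 macrophage and Kupffer cell markers, 6 were lower and 1 higher with lipid than in untreated cells, and 10 were lower and 1 higher in the presence of itaconate. *Cd68*, the one that was higher in both comparisons, made up most of the summed level, which spanned 187 to 299 CPM in untreated and 236 to 334 CPM in lipid-treated libraries. Without *Cd68* the other 11 markers summed to 47.1 ± 7.38 CPM (SD, n = 4, range 40.6 to 56.8) in untreated, 52.5 ± 10.2 (40.2 to 62.2) in itaconate, 32.5 ± 6.12 (26.4 to 40.0) in lipid and 27.8 ± 7.28 (22.8 to 38.5) in lipid + itaconate libraries. The 6 that fell with lipid alone ran from -0.44 on the log2 scale (*C1qb*) to -2.23 (*Timd4*, in the fit without the filter), with *Adgre1*, which encodes F4/80, at -0.82. In the presence of itaconate *Adgre1* was at -1.52, *Vsig4* at -1.85 and *Timd4* at -2.55, the last 2 in the fit without the filter. Among biliary markers, *Spp1* was 0.97 and *Sox9* 0.37 lower on the log2 scale with lipid than in untreated cells. *Krt19* (log2 0.26) and *Epcam* (log2 0.15) were not called in the fit without the filter. *Krt7* had at most 0.0385 CPM and *Cftr* 0 counts. Endothelial markers summed to 13.6 to 28.1 CPM in all groups and stellate cell markers to 16.4 to 26.1 CPM, with ranges that overlapped between the groups compared. The stellate sum was almost all *Reln*, at a mean of 20.2 CPM. The next stellate marker, *Dcn*, averaged 0.972 CPM, and *Col1a1* and *Lrat* averaged 0.0342 and 0.0444 CPM. Of 8 endothelial markers, *Clec4g* (log2 1.21, in the fit without the filter) and *Lyve1* (0.63) were higher with lipid and *Stab2* (-0.55) lower. Of the 8 hepatocyte markers 2 were called lower with lipid, down to -0.20 on the log2 scale. In the presence of itaconate 4 were lower, down to -0.57 (*Cps1*), and 1 higher. Among all genes tested 23.7% were lower and 23.8% higher with lipid, and 23.5% lower and 23.5% higher in the presence of itaconate. With lipid alone, the 2 of 8 hepatocyte markers lower and 2 of 8 endothelial markers higher are near these shares. The shares cover genes past the filter, and some markers are under it. The part of these cells in the chemokine results was not tested.

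Itaconate alone changed 2 of the 10 members. *Cxcl1* rose and *Cxcl10* fell, so that 1 member was higher against 1.96% of all genes tested and 1 lower against 2.95%. The median log2 change was 0.02 over the members. Group ranges did not overlap for 2 of 10, *Cxcl10* and *Cx3cl1*, where 7.53% of genes tested did not. *Cx3cl1* is under the filter, and its highest itaconate library and its lowest untreated library each had 2 counts. Its CPM ranges (up to 0.0725 and from 0.0730) are thus apart only through library size. *Cxcl10* measured 126, 109, 109 and 129 CPM with itaconate, below each of the 4 untreated libraries given above, and within a letter it stood at 0.700 to 0.816 of the untreated level. The fitted fall was 1.33-fold (log2 -0.41, SE 0.0454, adjusted p = 0.000117). *Cxcl1* measured 90.7, 88.8, 63.9 and 71.5 CPM with itaconate. It was higher in 4 of 4 letters, by 1.04- to 1.51-fold, although the ranges overlapped, since untreated replicate B lay above itaconate replicates C and D. The fitted rise was 1.32-fold (log2 0.40, SE 0.10, adjusted p = 0.0335). This call was lost when untreated replicate A, C or D or itaconate replicate A, C or D was left out, with adjusted p between 0.0816 and 0.13 and log2 changes of 0.32 to 0.41. Both calls were lost when the pairing by letter was left out of the model. With no replicate block the adjusted p was 0.487 for *Cxcl1* and 0.126 for *Cxcl10* at log2 changes of 0.37 and -0.42.

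*Cxcl9* fell short of the threshold with itaconate. It measured 86.5, 103, 64.0 and 67.8 CPM, lower than its untreated partner in 4 of 4 letters (log2 -0.24, SE 0.0728, adjusted p = 0.0663). *Cxcl2* had a log2 change of 0.41 (adjusted p = 0.168). *Cxcl12*, at 17.0, 12.2, 12.1 and 8.96 CPM with itaconate, had one of 0.33 (adjusted p = 0.214). Both were higher in 4 of 4 letters, with overlapping ranges. When lipid + itaconate replicate C was left out of the fit, *Cxcl9* (adjusted p = 0.0226) and *Cxcl12* (adjusted p = 0.0246) passed, which made 4 members called instead of 2. *Cxcl9* also passed without replicate A (adjusted p = 0.049) or B (adjusted p = 0.0429) of that group. *Ccl2* (95% interval -0.49 to 0.41), *Ccl7* (-0.38 to 0.55) and *Cxcl16* (-0.41 to 0.12) had intervals on the log2 scale that span 0. The summed counts of *Cx3cl1* were 3.58-fold lower (counting interval 1.11 to 15.1), at 2, 0, 1 and 1 counts.

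When itaconate was added to lipid, *Cxcl1* was the 1 member called, and it rose. Lipid + itaconate libraries had 34.3, 40.6, 32.3 and 26.0 CPM of *Cxcl1*, compared with 27.7, 25.8, 14.2 and 15.3 CPM for lipid. It was higher in 4 of 4 letters, by 1.24- to 2.27-fold, with the ranges overlapping at replicate A of lipid and replicate D of lipid + itaconate. The fitted rise was 1.64-fold (log2 0.71, SE 0.111, adjusted p = 0.00431), and it remained past the threshold with any 1 of the 8 libraries left out (adjusted p = 0.0109 without lipid + itaconate replicate B). It did not pass with no replicate block (adjusted p = 0.311) or when only these 8 libraries were fitted (adjusted p = 0.124), in which case 14 genes were called in all. One member higher and none lower compares with 1.32% of all genes higher and 1.26% lower. No member had ranges that did not overlap, against 5.82% of genes tested. Even so, *Cxcl1* in lipid + itaconate stayed below every untreated library.

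*Cxcl12* came next, at 8.17, 7.74, 3.32 and 5.13 CPM with lipid + itaconate (log2 0.56 against lipid, SE 0.169, adjusted p = 0.0875). Replicate C ran against the other 3 letters, at 0.772 of its lipid partner where the others were 1.57- to 1.93-fold higher. Without lipid + itaconate replicate C the log2 change was 0.77 (adjusted p = 0.000777). In *Ccl2*, *Ccl7* and *Cxcl16* the same letter stood out the other way, with replicate C 3.2-fold, 3-fold and 1.88-fold higher with lipid + itaconate than with lipid. In the other 3 letters the ratio lay between 0.727 and 1.44 for *Ccl2*, between 0.701 and 1.24 for *Ccl7* and between 0.782 and 1.12 for *Cxcl16*. None of these 3 was called (adjusted p = 0.406, 0.59 and 0.554). *Cxcl2* (log2 0.17, 95% interval -0.30 to 0.64) and *Cxcl9* (log2 -0.19, 95% interval -0.34 to -0.03, adjusted p = 0.189) were not called either.

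*Cxcl10* was the 1 gene of 11675 called in the test of whether the response to itaconate differed between cells with and without lipid. With lipid + itaconate it measured 69.4, 54.2, 63.1 and 73.2 CPM, and within a letter this was 0.982 to 1.09 of the lipid level. The change against lipid was 0.05 on the log2 scale (95% interval -0.05 to 0.15, adjusted p = 0.597), compared with -0.41 in cells without lipid. The difference between both changes, the interaction, was 0.47 (SE 0.0653, adjusted p = 0.0299) and positive in 4 of 4 letters. Called genes made up 0.00857% of those tested. Its size lay between 0.44 and 0.51 whichever of the 16 libraries was left out. The call was kept without itaconate replicate B, lipid replicate B, lipid replicate D or lipid + itaconate replicate B, and was lost without any 1 of the other 12, with adjusted p of 0.052 to 0.17. With no replicate block the adjusted p was 1. No other member was called, and their interactions ran from -0.25 (*Cxcl2*) to 0.44 (*Ccl2*) on the log2 scale among the 7 others past the filter, with 0.06 for *Cxcl9* and 0.31 for *Cxcl1* (adjusted p = 0.582).

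**Figure D3:**
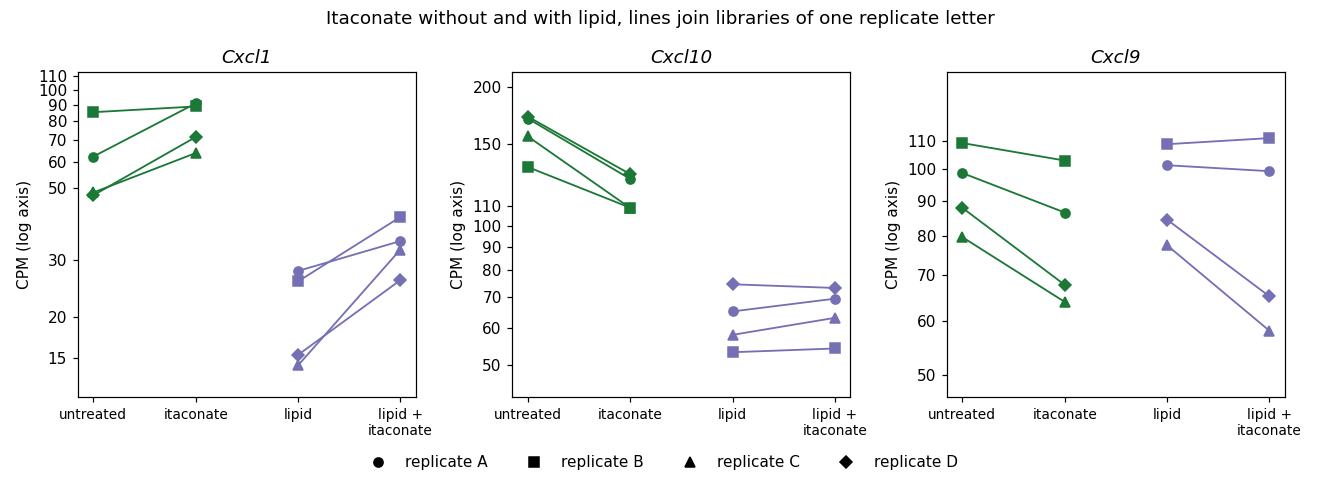
CPM of *Cxcl1*, *Cxcl10* and *Cxcl9* (vertical axes, log scale) with lines joining the libraries of 1 replicate letter, untreated to itaconate in green and lipid to lipid + itaconate in purple. *Cxcl1* rises along all 8 lines, *Cxcl10* falls along the 4 green lines and is nearly level along the purple ones, and *Cxcl9* spreads by letter.

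Chemokines outside the list moved in both directions with lipid. Besides the members, 6 chemokine genes passed the filter, 5 more averaged at least 0.2 CPM, 8 had fewer counts and 13 had none. *Ccl9*, a CCR1 ligand of myeloid cells, fell with lipid (log2 -0.89, SE 0.133, adjusted p = 6.48e-05). *Cxcl11*, another CXCR3 ligand, annotated as a polymorphic pseudogene in this mouse genome, went from a mean of 3.64 to 1.10 CPM (log2 -1.74, SE 0.221). *Ccl5*, a T cell and monocyte attractant, rose instead, from 0.821 ± 0.131 to 1.51 ± 0.533 CPM (SD, n = 4, log2 0.83, SE 0.260). *Ccl25*, *Ccl27a* and *Ccl6* were not called in the 4 comparisons between groups. Of the 5 rarer genes, *Cxcl3*, another CXCR2 ligand, had 3 to 20 counts in untreated libraries and 0 in all 4 lipid libraries, at least 16.4-fold lower against a floor of 3 counts over the group. *Ccl28* was called higher with lipid in the fit without the filter (mean 0.148 CPM untreated and 0.471 CPM with lipid), and *Ccl3*, *Cxcl14* and *Ccl4* were not called.

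Genes of the pathways that act on chemokines were taken from lists. Of 26 NF-kB pathway genes past the filter, lipid lowered 17 and raised 1, with a median log2 change of -0.27, and itaconate added to lipid raised 4 and lowered none. Those 4 were *Il1r1*, the interleukin-1 receptor (log2 -1.52 with lipid, 0.52 when itaconate was added), the nuclear IkB family member *Nfkbiz* (-1.23 and 0.36), the feedback inhibitor *Tnfaip3* (-0.99 and 0.32) and *Nfkbia*, which encodes IkB alpha (-0.72 and 0.19). Itaconate alone lowered 2 of the 26 and raised none. Among all genes tested, lipid lowered 23.7% and raised 23.8%. Itaconate added to lipid raised 1.32% and lowered 1.26% of them, and itaconate alone raised 1.96% and lowered 2.95%. Of 19 interferon signalling genes, lipid lowered 13 and raised 1, and itaconate alone lowered 4 and raised none. *Usp18*, a brake on interferon receptor signalling, fell by 0.72 with itaconate and by 0.87 with lipid on the log2 scale, and *Irf7* fell by 0.59 and by 1.14. *Stat3*, which carries interleukin-6 signals, fell with lipid by 0.63 and was not called with itaconate alone.

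**Figure D4:**
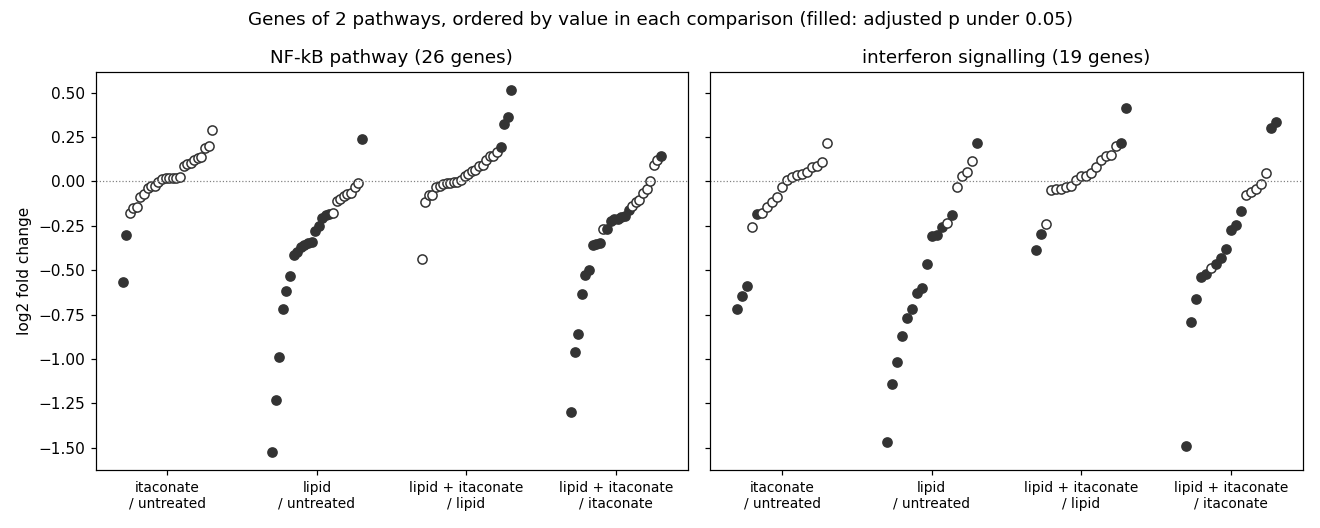
Log2 fold change (vertical axis) of 26 NF-kB pathway genes and 19 interferon signalling genes in 4 comparisons, each point 1 gene, ordered by value within a comparison and filled where the adjusted p was under 0.05. Most filled points lie below 0 in both lipid comparisons, with 17 NF-kB genes and 13 interferon genes lower against untreated. Of all genes tested, 23.7% were lower with lipid than in untreated cells.

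Receptors and inducing cytokines were sparsely expressed. Of 23 chemokine receptors 2 passed the filter, and *Ackr3*, the scavenger of CXCL12, fell with lipid from a mean of 5.00 to 1.71 CPM (log2 -1.55, SE 0.201, adjusted p = 1.8e-05). Of 12 inducing cytokines 3 passed, 4 had 0 counts, *Ifng* among them, and the macrophage growth factor *Csf1* was lower both with lipid (log2 -0.70) and with itaconate (log2 -0.53). Among 6 shedding and trimming proteases past the filter, lipid raised 2, *Dpp4*, which trims CXCL10 and CXCL12 (log2 0.57), and *Mmp14* (log2 0.36). Itaconate raised 1, the macrophage elastase *Mmp12*, by 0.90 on the log2 scale. *Mmp9*, under the filter, went from a mean of 1.27 CPM untreated to 0.180 CPM with lipid. Of 9 genes of mRNA decay lipid lowered 3, the destabilizing factors *Zc3h12a* (log2 -0.62), *Zfp36* (-0.41) and *Zfp36l2* (-0.38), and raised none. Among all genes tested lipid raised 23.8% and lowered 23.7%, and the counts for proteases and decay genes, 2 of 6 higher and 3 of 9 lower, are near these shares.

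For each member called at least once, the genes closest in pattern were sought among 9638 genes that averaged 5 CPM or more, by the root mean square difference of log2 CPM over the 16 libraries, with gene and letter means removed. *Cxcl1* lay closest to *Il1r1* (0.151) and *Etfbkmt* (0.203), *Cxcl10* to the interferon-inducible GTPase *Irgm2* (0.123) and the sterol enzyme *Lss* (0.134), and *Cxcl12* to *Pdk4* (0.180) and *Cebpd* (0.187). *Ccl2* and *Ccl7* shared their 2 nearest genes, *Gm4070* (0.311 and 0.351) and *Gvin1* (0.350 and 0.354). *Cxcl2* was nearest to *Gm4070* (0.486) and *Rarb* (0.489), *Cxcl16* to *Sec16b* (0.108), and the sparsely counted *Cxcl5* to *Ivl* (0.667) and *Prelp* (0.793). For comparison, the spread of the member itself over the 16 libraries was 0.775 for *Cxcl1*, 0.574 for *Cxcl10* and 1.02 for *Ccl2* on the same scale. All values of a pattern share the same libraries and treatments.

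Some limits apply to single members. *Cxcl10*, *Cxcl16* and *Ccl2* each overlap 1 annotated gene on the opposite strand, *Art3*, *Zmynd15* and *Gm17268*. The kit kept strand, but whether the counting used it is not given in the sources used here, so reads of such pairs cannot be told apart. In the whole table, a share of 5.41% of the expected counts were not whole numbers, and of the members' values 0 were.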

How the data were processed

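RNA from 16 cultures of primary mouse hepatocytes (4 treatments, replicate letters A to D) was sequenced from stranded mRNA libraries. The deposited values are RSEM expected counts per gene, made by the authors on mm10 with GENCODE genes. The submitters' processing notes name bcl2fastq 2.20, Cutadapt 1.18, STAR 2.7.0f, Picard 2.18.26 and RSEM 1.3.1. Whether counting used strand is not given in the sources used here.

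Expected counts were rounded and TMM-normalised. They were tested with the quasi-likelihood test of edgeR 4.0.16 in R 4.3.3, with treatment and replicate letter as terms, since the study removed a batch effect by a linear model, on all 16 libraries and the 11675 of 55450 genes that averaged 1 CPM or more. Benjamini-Hochberg adjustment ran over all genes tested, with a threshold of 0.05. Genes under the filter were taken from the same fit over the 25152 genes with at least 1 count. Same-letter libraries deviated together: for all 24 pairs the correlation of deviations from the group means was 0.143 to 0.468, against -0.435 to 0.178 for 72 pairs of other letters, so the letters were treated as pairs. The source of the pairing is this check and not the labels, which give only the letters.

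Counting ratios used exact intervals at 95%, and a group at 0 was set to a floor of 3 counts over the group. Exon lengths and positions came from GENCODE M21 (GRCm38), and promoters from RefSeq (GRCm38.p6). The scripts were tested on simulated counts. The members and all gene lists were chosen with earlier results of these data known. All 10 members are named. Other chemokines are named from a mean of 0.2 CPM, at most 4 called genes of each list by smallest p, and the 2 genes most like each called member. A few genes that this rule names are not reported here. Alternatives were no replicate block, RLE scaling, filterByExpr, no filter, only the 8 libraries compared, DESeq2 1.42.0, limma 3.58.1, and leaving out each library.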

Additional observations from a re-analysis of the deposited data

Results flagged for a closer look

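Of 82 groups of 4 libraries tested (members and other named chemokines), 8 had a highest or lowest library farther from the others than Dixon's critical value for 4 values allows. For normally distributed values chance flags about 1 group in 20. That rate need not hold for genes with few counts, such as *Cxcl5*.

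For members, *Ccl7* measured 7.47 CPM in itaconate replicate B and 4.14 to 4.46 CPM in the other 3 itaconate libraries. *Cxcl5* measured 0.0675 CPM in lipid replicate D, from 2 counts, and 0 in the other 3 lipid libraries.

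Among the other chemokines, *Cxcl11* measured 2.03 CPM in itaconate replicate C and 2.85 to 2.97 CPM in the others, and 1.42 CPM in lipid replicate A and 0.973 to 1.05 CPM in the others. *Ccl5* measured 1.02 CPM in untreated replicate B and 0.749 to 0.767 CPM in the others. *Ccl3* measured 0.599 CPM in lipid + itaconate replicate D and 0.231 to 0.285 CPM in the others. *Cxcl14* measured 0.301 CPM in lipid replicate B and 0.0811 to 0.101 CPM in the others. *Ccl4* measured 0.508 CPM in itaconate replicate A and 0.111 to 0.173 CPM in the others.

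The response of *Cxcl10* to itaconate differed between cells with and without lipid by 0.47 on the log2 scale (0.4664 before rounding, edgeR, adjusted p = 0.0299). It was positive in 4 of 4 letters.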

How the results depend on the processing

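The falls with lipid were the most stable values. Of the 15 called member values in both lipid comparisons, the call was kept in 103 of 104 refits under other settings, the exception being *Cxcl5*, for which DESeq2 gave no adjusted p, and in 148 of 148 refits with 1 library left out. With limma 9 members were called for lipid against untreated, where the main fit and the other settings called 7. The itaconate results were less stable. With no replicate block, so without the pairing by letter, 0 members were called for itaconate against untreated, 0 for lipid + itaconate against lipid and 0 for the interaction, and 23, 9 and 0 genes in all. With no filter the members called were 5, 4 and 2, and the genes 1091, 725 and 231. With only the 8 libraries of a comparison, 5 and 0 members and 1859 and 14 genes were called. DESeq2 called 2 members and 512 genes for lipid + itaconate against lipid, and 36 genes for the interaction. RLE scaling and filterByExpr each called 2 genes for the interaction. With 1 library left out, called members ran from 1 to 4, 1 to 2 and 0 to 1, and called genes from 149 to 1051, 59 to 891 and 0 to 8. The highest counts in the first 2 comparisons came without lipid + itaconate replicate C. Leaving lipid + itaconate libraries out of comparisons they are not part of was chosen after seeing the data. The causes were not tested. Log2 changes that were not called and changed sign with 1 library left out were, for itaconate against untreated, *Ccl2* (-0.16 to 0.055) and *Ccl7* (-0.061 to 0.21), for lipid against untreated *Cxcl9* (-0.062 to 0.027), for lipid + itaconate against lipid *Cxcl2* (-0.0555 to 0.39), *Cxcl16* (-0.0335 to 0.28) and *Ccl7* (-0.0025 to 0.52), for lipid + itaconate against itaconate *Cxcl9* (-0.031 to 0.11) and *Cx3cl1* (-0.56 to 0.69), and for the interaction *Cxcl9* (-0.018 to 0.12) and *Ccl7* (-0.086 to 0.43). Depth limits *Cxcl5* and *Cx3cl1*, with 42 and 23 counts in all 16 libraries.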
